A study of Homo sapiens with 10 samples.

Results

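Genes of liver plasma carriers were followed through the hepatic differentiation of H1 cells, an established human embryonic stem cell (hESC) line. The carriers were chosen by name as AFP, ALB, TTR, AHSG, FETUB and AMBP, and their rows were read in all 10 libraries. Of these 6 genes, 5 were found among the 12125 genes of the table, and FETUB was not analysed here. The libraries were made from total RNA of bulk cultures, with 1 library at day 0 and at each of 9 later days up to day 21. Every value below is therefore that of 1 library, and no difference between days has a replicate error or a test.

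The day 0 library came from H1 cells with no treatment. The libraries of days 1, 2 and 3 came from cells given 100 ng/ml Activin A. Those of days 5 and 7 came from cells given 30 ng/ml FGF4 and 20 ng/ml BMP2. Those of days 9 and 11 came from cells given 20 ng/ml HGF and 20 ng/ml KGF, and those of days 13 and 21 were labelled with 20 ng/ml Oncostatin M (OSM). The described protocol gives 3 days of Activin A, 4 of FGF4 and BMP2, 6 of HGF and KGF and 8 of OSM, which places day 13 at the end of HGF and KGF. The treatment of the day 13 library is thus given differently by its label and by the protocol. All libraries share 1 cell line, cultured without serum. A day and its medium cannot be told apart in this design.

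Hepatocytes secrete most of the proteins that circulate in plasma, and many of them carry lipids, hormones, metals or vitamins. Albumin (ALB) is the major plasma protein after birth and binds fatty acids, bilirubin and drugs. Alpha-fetoprotein (AFP) is its relative in the embryo, made by the yolk sac and the fetal liver and silenced in the liver around birth. Transthyretin (TTR) carries thyroxine and, with retinol-binding protein (RBP4), retinol, and is also made by the visceral endoderm and the choroid plexus. Fetuin-A (AHSG) binds calcium phosphate mineral and is abundant in fetal plasma. AMBP encodes a precursor that is cut into alpha-1-microglobulin, a heme-binding lipocalin, and bikunin, the protease inhibitor of the inter-alpha-trypsin inhibitors.

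AFP (ENSG00000081051) and ALB (ENSG00000163631) are neighbours. The table gives ALB at chr4:74262831-74275174 and AFP at chr4:74296855-74302927, both on the plus strand. The gap from the end of the printed ALB interval to the start of the printed AFP interval is 21680 bases. TTR (ENSG00000118271) is at chr18:29171689-29178974 and AHSG (ENSG00000145192) at chr3:186330712-186339107, both on the plus strand, and AMBP (ENSG00000106927) is at chr9:116822407-116840752 on the minus strand. These intervals are as the table prints them, and their build is not named there. Whether they span the whole genes was not checked, so the gap may not be the distance between the genes. In the RefSeq order of genes, GC, ALB, AFP and AFM follow each other on chromosome 4, and AHSG, FETUB, HRG and KNG1 on chromosome 3. Of these neighbours, KNG1 is described below, and GC, AFM and HRG were not analysed here.

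The 250 bases before the start of 4 of the genes are shown from RefSeq (GRCh38.p14, a build whose coordinates cannot be set beside those of the table), 5′ to 3′ on the strand of the gene. They are given because AFP and ALB lie side by side yet differed in the day of their rise, AHSG rose in several steps, and AMBP was not called. Capitals mark matches on either strand to letters bound by liver or general promoter factors.
AFP, chr4:73435971-73436220, plus strand: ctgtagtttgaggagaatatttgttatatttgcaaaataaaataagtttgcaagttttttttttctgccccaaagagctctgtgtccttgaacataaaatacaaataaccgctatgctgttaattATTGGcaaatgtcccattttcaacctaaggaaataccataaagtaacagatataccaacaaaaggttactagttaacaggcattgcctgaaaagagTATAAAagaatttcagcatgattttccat
ALB, chr4:73404037-73404286, plus strand: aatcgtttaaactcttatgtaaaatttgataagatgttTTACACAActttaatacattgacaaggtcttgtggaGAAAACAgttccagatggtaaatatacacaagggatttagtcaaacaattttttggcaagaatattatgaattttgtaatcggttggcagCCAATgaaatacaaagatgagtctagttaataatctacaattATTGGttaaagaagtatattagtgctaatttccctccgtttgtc
AHSG, chr3:186612810-186613059, plus strand: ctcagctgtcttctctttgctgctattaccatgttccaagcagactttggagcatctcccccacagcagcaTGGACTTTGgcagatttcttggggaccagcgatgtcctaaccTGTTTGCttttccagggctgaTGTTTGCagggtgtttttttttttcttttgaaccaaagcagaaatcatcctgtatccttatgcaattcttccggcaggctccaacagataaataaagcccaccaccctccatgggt
AMBP, chr9:114078301-114078550, minus strand: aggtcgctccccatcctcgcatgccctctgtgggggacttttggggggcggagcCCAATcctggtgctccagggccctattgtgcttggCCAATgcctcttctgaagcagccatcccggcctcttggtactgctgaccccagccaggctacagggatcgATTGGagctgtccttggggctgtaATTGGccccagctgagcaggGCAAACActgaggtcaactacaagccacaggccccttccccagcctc

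The letters searched were TGTTTNC (FOXA), CAAAGNCCA (HNF4), TTGNGNAA (C/EBP), CCAAT (the CCAAT box) and TATAAA (the TATA box). AFP held CCAAT on the minus strand, 125 to 121 bases before the start, and TATAAA at 29 to 24. Its neighbour ALB held TTGNGNAA at 212 to 205, TGTTTNC at 176 to 170 and CCAAT at 86 to 82 and 44 to 40 bases before its start. AHSG held TGTTTNC at both 137 to 131 and 116 to 110, and CAAAGNCCA at 179 to 171 bases before its start. AMBP held TGTTTNC at 47 to 41 and 4 CCAAT matches, the farthest at 196 to 192. Of 35116 RefSeq promoters of this length, TGTTTNC was in 15.5%, CAAAGNCCA in 1.34%, TTGNGNAA in 10.8%, CCAAT in 32.0% and TATAAA in 10.7%. A match describes these letters only, and binding was not measured.

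The values are whole-number scores that the authors normalized for GC content, and they set how the numbers below can be read. Library totals lay between 2330948 and 2362740, and each library had the same maximum of 18734, held by 10 genes. The highest values, held by 96 to 100 genes per library, fell into 10 narrow levels (the top levels) that recurred in every library. Each of 9 of these values, among them 4866, was held by exactly 1 gene in every library. These values are thus places in a ranking and not amounts, and a gene at 18734 cannot be seen to rise further. For example, 4866 was the value of AASS at day 0, of PCDH10 at days 2 and 3, of FGB at days 7, 9 and 11, of LUM at day 13 and of ALB at day 21. Lower values recurred too, such as 936 for SPARC at day 1 and OTX2 at day 3, and 790 for SOX17 at day 3 and PDIA4 at day 13. The library median was 82 at days 0 to 13 and 81 at day 21. Values below the top levels may thus also be places on a shared scale, and a fold is one of scores. Gene length is not taken into account, so each gene is compared with its own other days and not with other genes. Differences are on the log2(value + 1) scale. A gene was called higher when this difference was at least 2 and the larger value at least 50. As a scale for differences, the 500 genes nearest in level differed between days 9 and 11, both in HGF and KGF, with an SD of 0.72 at a value of 20, 0.44 at 50, 0.33 at 100 and 0.28 at 500. That SD includes any true change between those days.

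AFP was low in stem cells and in the Activin A libraries, with values of 28, 40, 44 and 33 at days 0, 1, 2 and 3. It was 342 at day 5 and 18734, the maximum, at days 7, 9, 11, 13 and 21. The libraries fell apart into 4 low ones, 1 intermediate one and 5 at the maximum, with no fall after day 7 that this scale could show. The difference was 3.33 from day 3 to day 5, a 10.4-fold higher value, and 5.77 from day 5 to day 7.

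TTR reached 50 and its maximum 1 sampled day after AFP. By entry into the highest 10% of the library, both were first there at day 7. TTR was 2 at days 0 and 1, was listed at 0 at days 2 and 3, and was 26 at day 5, 3430 at day 7 and 18734 at days 9, 11, 13 and 21. From day 5 to day 7 the difference was 6.99, and 0.00825% of all genes had a larger one. The next difference of 2.45, from day 7 to day 9, lay between places in the top levels.

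ALB was 4 at day 0, 32, 20 and 24 in the Activin A libraries, 62 and 65 at days 5 and 7, 72 and 100 at days 9 and 11, 168 at day 13 and 4866 at day 21. The first 9 libraries thus lay between 4 and 168, and day 21 stood far above all of them. The difference of 2.72 from day 0 to day 1 was between values under 50, and the SD at that level was 0.83. From day 9 to day 11 ALB differed by 0.47, beside an SD of 0.37, and from day 11 to day 13 by 0.74, beside 0.32. From day 13 to day 21 it differed by 4.85, and 0.14% of all genes had a larger difference.

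The albumin locus neighbours were therefore at different levels of their own ranges in the same libraries. At day 7 AFP was at 18734 while ALB was 65, and at day 13 AFP was still at 18734 while ALB was 168. At day 21 both were in the top levels. Any change of AFP from day 13 to day 21 could not be seen on this scale, because it was at the maximum on both days.

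AHSG was 2 at day 0, was listed at 0 at days 1, 2 and 3, and was 20 and 18 at days 5 and 7. It was then 124 and 135 at days 9 and 11, 518 at day 13 and 6495 at day 21. It was thus higher at day 5 than at day 3, from a value listed at 0 to one under 50, and then differed by 2.72 from day 7 to day 9, 1.93 from day 11 to day 13 and 3.65 from day 13 to day 21. Between days 9 and 11 it differed by 0.12, under the SD of 0.32 at that level. The step of 1.93 fell short of the limit of 2 and stood beside an SD of 0.26.

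AMBP differed least of the 5 between day 0 and day 21. It was 18, 9 and 6 at days 0, 1 and 2, was listed at 0 at day 3, and was 26, 28, 32, 34, 41 and 74 at days 5, 7, 9, 11, 13 and 21. It passed 50 in the day 21 library alone. The difference from day 0 to day 21 was 1.98, just under the limit of 2. The values of days 5 to 13 differed from each sampled day to the next by less than the SD at that level, which was 0.44 between days 9 and 11.

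Over the 4 steps of the protocol, the calls moved from AFP and TTR to AHSG and then ALB. From day 0 to day 3 none of the 5 genes reached 50 in either library, so none could be called, and the share of all genes called higher was 3.94% of the 8934 that reached 50. From day 3 to day 7, AFP and TTR were called higher, 2 of the 3 that reached 50, beside 5.63% of 9100 genes. From day 7 to day 13, TTR and AHSG were called higher, 2 of the 4 that reached 50, beside 3.08% of 8892 genes. That TTR call lay between places in the top levels. From day 13 to day 21, ALB and AHSG were called higher, 2 of the 5, all of which reached 50, beside 2.28% of 8786 genes. Across the whole course, from day 0 to day 21, all but AMBP were called higher, 4 of 5 beside 11.9% of 9698 genes. None of the 5 was called lower in any of these comparisons.

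The median difference of the 5 genes was -1.58 from day 0 to day 3, 4.86 from day 3 to day 7, 1.36 from day 7 to day 13 and 0.84 from day 13 to day 21. Over all genes the medians were -0.04, -0.03, -0.04 and -0.10. The first and the second of the carrier medians rest on TTR, AHSG and AMBP, which were listed at 0 at day 3, and so depend on the 1 added to each value. With 5 added in its place, the day 3 to day 7 difference of AMBP was 2.72, and with 0.1 added it was 8.13. The first day at a value of at least 50 was day 5 for AFP and ALB, day 7 for TTR, day 9 for AHSG and day 21 for AMBP. The first day at a gene's own highest value was day 7 for AFP, day 9 for TTR and day 21 for ALB, AHSG and AMBP.

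Markers of other cell types were read beside the carriers, without the carriers themselves. In these bulk libraries, fewer cells of a type and less RNA per cell cannot be told apart. The pluripotent list, with 12 of 12 genes found, summed to 18347, 16749, 4277, 1048 and 240 at days 0, 3, 7, 13 and 21. The day 3 sum held LEFTY2, a place in the top levels, at 6495, which was 64 at day 0. From day 0 to day 3, 1 of the 12, LEFTY2, was called higher, beside 3.94% of all genes. In that step 3 were called lower, SOX2, DPPA4 and DNMT3B. POU5F1, the core pluripotency factor, was 4861 at day 0 and 5 at day 21, and SOX2, NANOG, L1TD1, PRDM14 and LEFTY2 were listed at 0 at day 21. Of the adult hepatocyte markers, 5 of 22 were found. They summed to between 157 and 1085 from day 0 to day 13 and to 2056 at day 21. Of these, CPS1, the mitochondrial entry enzyme of the urea cycle, was 89 at day 13 and 1217 at day 21, and TDO2, which degrades tryptophan, was between 2 and 93 throughout. The cytochrome P450 genes of that list were not analysed here.

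The yolk sac and visceral endoderm list, with 18 of 19 genes found, held genes that went up and genes that went down as AFP and TTR rose. It summed to 835, 26071, 12461, 35909, 19467 and 46058 at days 0, 3, 5, 7, 13 and 21. Much of the sums at days 3, 7 and 21 was 1 gene at 18734, CER1, LAMB1 and APOB in turn. The median log2(value + 1) of the list was 2.08, 4.23, 7.19, 8.11, 8.38 and 8.33 on the days of the sums. From day 3 to day 7, 11 of its 18 genes were called higher and 3 lower, with 16 at 50 or more in either library, beside 5.63% of all genes called higher. The higher sum at day 7 than at day 5 was in large part that of LAMB1, a laminin chain, at 3430 and then at the maximum. In that interval GATA4 was 530 and then 354, and DAB2 was 650 and then 492. SOX17, an endoderm factor, was 790, 72 and 4 at days 3, 7 and 21, and CER1, a secreted Nodal antagonist, was 18734 at day 3 and 12 at day 7. APOA4, a lipoprotein component, was 113 at day 5 and 4855 at day 21. Several genes of this list are also expressed by fetal hepatocytes, and the list's part in the AFP and TTR values was not tested.

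The choroid plexus list, 6 of 9 genes found without TTR, summed to 58, 980, 296, 429, 922 and 3144 at days 0, 3, 5, 7, 9 and 21. Most of the last sum was AQP1, a water channel found in many cell types, at 2796. Most of the day 3 sum was OTX2, at 936, a factor of choroid plexus that the authors list under early endoderm and ectoderm. OTX2 was 68 at day 7 and listed at 0 at days 13 and 21. Others of the list went the other way. From day 3 to day 7, 3 of the 6, FOLR1, KCNJ13 and ENPP2, were called higher and 1, OTX2, lower. In that step 4 reached 50 in either library, beside 5.63% of all genes called higher. KCNJ13, a potassium channel, was 9, 130 and 76 at days 3, 7 and 21, and FOLR1 was 16, 90 and 33 on those days. ENPP2 was 8, 88, 228 and 176 at days 3, 7, 13 and 21. CLIC6, under 50 and not called from day 3 to day 7, was 11, 44, 252 and 63 on the same days as ENPP2. The list's part in the TTR values was not tested. Biliary markers, 7 of 9 found, lay between 1207 and 6037, and intestinal markers, 4 of 10 found, between 4 and 654. Kidney tubule markers, 4 of 10 found, were highest at day 7, at 2166, through LRP2 and CUBN.

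Other lists moved in the later libraries, and not all in the step from day 13 to day 21, when ALB was called higher. In that step none of the 11 stroma or 8 red blood cell genes found was called, beside 2.28% of all genes called higher. The stroma list, 11 of 11 found, summed to 3093, 1548, 5376, 39491 and 42127 at days 0, 5, 7, 13 and 21. Most of the sum at days 13 and 21 was COL1A2 at 18734 and COL3A1 at 6502, both places in the top levels. From day 0 to day 21, 9 of the 11 genes were called higher, beside 11.9% of all genes. THY1, which made up most of the day 0 sum, was called lower, with a difference of -7.38. TAGLN was 628 at day 13 and 206 at day 21. The red blood cell list, 8 of 13 found, summed to between 5 and 47 through day 7, then to 163, 1069, 5741 and 2800 at days 9, 11, 13 and 21. Its embryonic globin HBE1 was 2968 at day 13. The macrophage list, 3 of 12 found, was 74 at day 13 and 525 at day 21, when CD68 was 259, LYZ 201 and PTPRC 65. PTPRC was also 39, 12 and 18 at days 0, 1 and 2, and was listed at 0 from day 3 to day 13. The part of these lists in the carrier values was not tested.

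**Figure D1:**
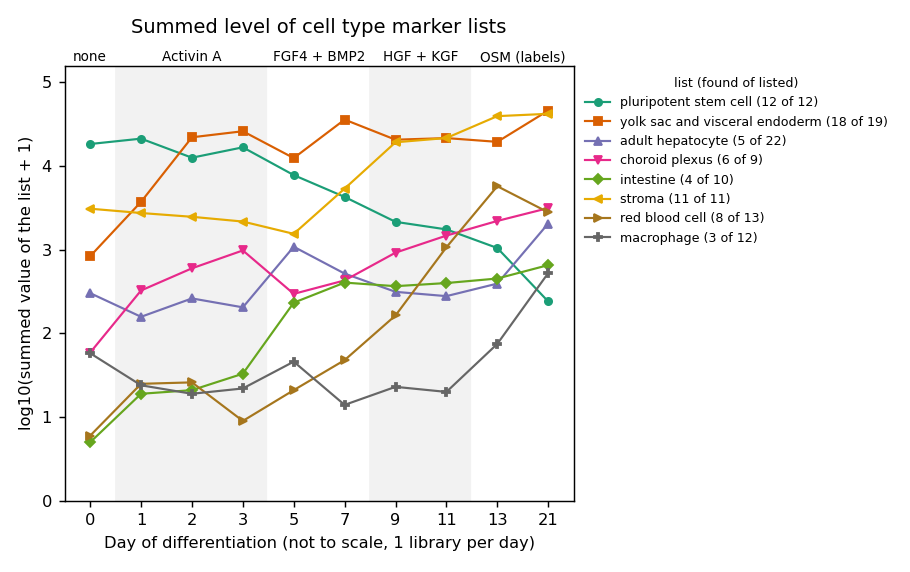
Summed value of each marker list, as log10(sum + 1) on the y axis, against the day of differentiation on the x axis (days not to scale), with each point 1 library and the number of genes found in the key; carrier genes are left out of the sums. The pluripotent list goes down from 18347 at day 0 to 240 at day 21, and the stroma and red blood cell lists go up from day 7 to day 13. The yolk sac list has its largest sums at days 3, 7 and 21, when CER1, LAMB1 and APOB in turn were at the maximum of 18734.

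Plasma protein genes beyond the carriers were mostly higher by day 21. Of 30 listed, 14 were found, and 13 of them, which are all that reached 50 in either library, were called higher from day 0 to day 21 and none lower, beside 11.9% of all genes called higher, with a median difference of 9.30 over the 14 beside -0.12 over all genes. Of the 14, 4 were listed at 0 at day 0, so this median also depends on the added 1. The remaining gene, ITIH4, an inter-alpha-trypsin inhibitor heavy chain of the family that binds bikunin, was 3, 111 and 40 at days 0, 13 and 21. From day 3 to day 7, 7 of 14 were called higher, all of the 7 that reached 50, beside 5.63% of all genes. Among them were the lipoprotein genes APOA1 and APOB, the fibrinogen chain FGB and RBP4, the retinol carrier that pairs with TTR. APOB was 7, 186, 4856 and 18734 at days 3, 5, 7 and 21. APOA1 was 34 at day 3 and 2796 at day 5, and lay between 3428 and 4855 from then on. RBP4 was 1, 16, 214, 823 and 3430 at days 3, 5, 7, 9 and 21, and so passed 50 at day 7, the same sampled day as TTR.

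From day 7 to day 13, 5 of the 14 plasma genes were called higher, of 11 that reached 50, beside 3.08% of all genes. From day 13 to day 21, 8 of 14 were, all of which reached 50, beside 2.28% of all genes. SERPINA1, which encodes alpha-1-antitrypsin, was 56, 704, 1046, 2640 and 18734 at days 7, 9, 11, 13 and 21. TF, the plasma iron carrier, was 5, 64, 98, 291 and 3865 on the same days, with differences of 5.60 from day 7 to day 13 and 3.73 from day 13 to day 21. A2M, a broad protease inhibitor, was 12, 56, 80, 120 and 4858, with a difference of 5.33 in the last step. FGG, a fibrinogen chain, was 66 at day 13 and 1327 at day 21, while FGB was 4866 from day 7 to day 11, 3868 at day 13 and 3438 at day 21. HPX, the plasma heme carrier, was 348 at day 13 and 2798 at day 21, and HP, which binds free hemoglobin, was at most 26 before day 21 and 74 at day 21. KNG1, a kininogen gene near AHSG, was 46 at day 13 and 220 at day 21. SERPINA6, the glucocorticoid carrier, was 22 at day 13 and 98 at day 21. APOM, a lipoprotein component that carries sphingosine-1-phosphate, was 746 at day 13 and 191 at day 21.

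**Figure D2:**
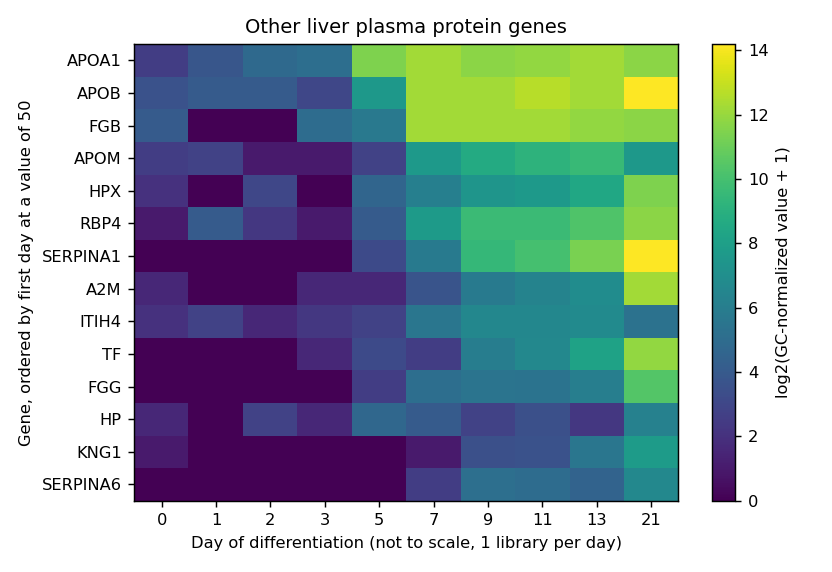
Levels of the 14 other plasma protein genes found, 1 row per gene in order of its first day at a value of 50 and 1 column per library (days not to scale), coloured by log2(value + 1). APOA1, APOB and FGB are in the top levels by day 7, while TF and A2M stay at 291 or below until day 13 and reach 3865 and 4858 at day 21.

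Proteins that bind, take up or fold the carriers were read as a list of 20 genes, of which 16 were found. From day 0 to day 21, 8 of 16 were called higher and none lower, with 15 at 50 or more in either library, beside 11.9% of all genes called higher. The median difference was 3.23 beside -0.12 over all genes. Endocytic receptors that recover filtered or secreted carriers were higher from day 7 than at day 3, and their later paths differed. LRP2 (megalin) was 4 at day 3 and 216 at day 5, then 1488, 1021 and 582 at days 7, 9 and 11, and 155 and 227 at days 13 and 21, and its difference from day 7 to day 13 was -3.25. CUBN (cubilin) was 20, 642, 659 and 212 at days 5, 7, 13 and 21, and its partner AMN was 104 at day 7 and 157 at day 21. FCGRT, which recycles albumin and IgG, was between 36 and 52 through day 5, between 124 and 153 from day 7 to day 13 and 318 at day 21.

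The asialoglycoprotein receptor, by which hepatocytes clear desialylated plasma proteins, was higher late. ASGR2 was 12, 148 and 267 at days 7, 13 and 21. ASGR1 lay between 6 and 43 up to day 13 and was 320 at day 21, a difference of 2.87 in the last step. STRA6, a receptor for RBP4 that takes up retinol, was between 8 and 67 throughout. SPARC, an albumin-binding matrix protein, was 660 at day 0 and 18734 from day 7 on. None of the chaperones of the secretory pathway on the list was called from day 0 to day 21. CANX lay between 1216 and 1736 and PDIA4 between 790 and 1492 over the 10 libraries. HSPA5 was 872 at day 0 and 3429 at day 21, a difference of 1.97, and CALR was 1216 and 2434 on those days.

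Transcription factors known to act on these genes were read as a list of 22, of which 17 were found. Of these, 4 were called higher from day 0 to day 3, namely FOXA2, GATA4, GATA6 and HHEX, of 7 that reached 50, beside 3.94% of all genes. From day 3 to day 7, 5 were called higher, namely HNF4A, FOXA1, CEBPA, TBX3 and NR2F2, of 14 that reached 50, beside 5.63% of all genes. From day 7 to day 13, TBX3 was called lower and none higher, of 14 that reached 50, beside 3.08% of all genes called higher. From day 13 to day 21 none was called in either direction, of 13 that reached 50 in that step, beside 2.28% of all genes called higher. From day 0 to day 21, 8 were called higher and none lower, of 12 that reached 50, beside 11.9% of all genes called higher. The median difference over the list was 3.32 from day 0 to day 21 and -0.60 from day 13 to day 21, beside -0.12 and -0.10 over all genes.

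FOXA2, a pioneer factor of endoderm, was listed at 0 at day 0, was 190 at day 3 and 343 at day 7, then 48 at day 21. GATA6, another endoderm factor, was 2, 642 and 142 at days 0, 3 and 21. HNF4A, a nuclear receptor central to hepatocyte genes, was 28, 299, 1044, 838 and 470 at days 3, 5, 7, 13 and 21. It thus had its highest value in the library in which AFP first reached its maximum. FOXA1 was 4, 121 and 54 at days 3, 7 and 21, and TBX3, a factor of the liver bud, was 42, 768 and 63 on the same days. CEBPA, a factor of mature hepatocytes, was 10, 67, 266 and 160 at days 5, 7, 13 and 21. NR2F2, an orphan nuclear receptor, was 62, 154 and 234 at days 7, 13 and 21. PPARA, a receptor for fatty acids, was 66, 102 and 248 on those days. Both, and CEBPB at 56, had their highest value at day 21.

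Genes known as repressors of AFP were measured too. ZHX2, which silences AFP in the mouse liver after birth, was 108, 166, 182 and 144 at days 0 to 3, 90 and 78 at days 5 and 7, and between 44 and 58 from day 9. ZBTB20, a second repressor of AFP after birth, lay between 0 and 30 in all libraries. ZFHX3, which binds AT-rich elements of the AFP gene, was between 22 and 31 through day 5, between 64 and 110 from day 7 to day 13 and 76 at day 21. From day 13 to day 21 the difference was 0.24 for ZHX2 and -0.38 for ZFHX3, and ZBTB20 was 19 and then 9.

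**Figure D3:**
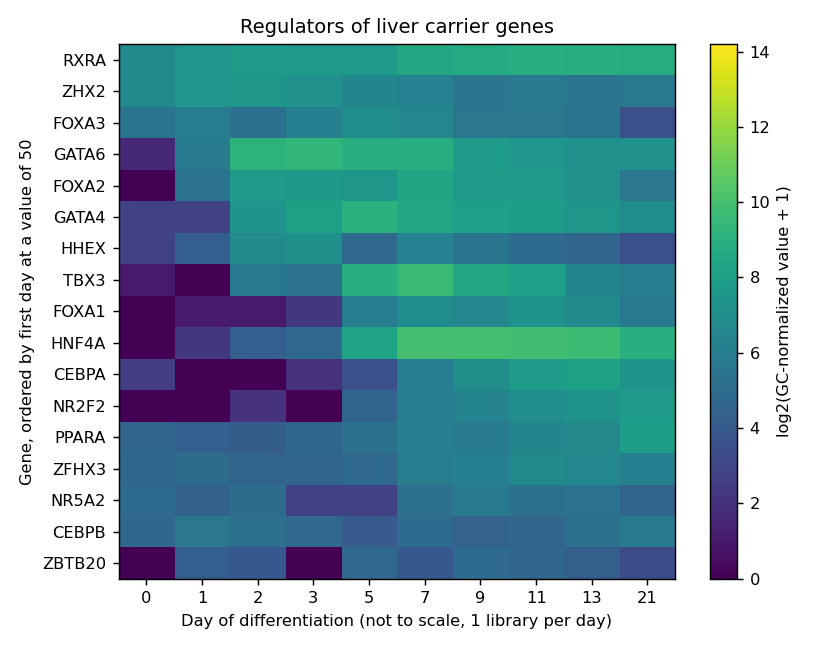
Levels of the 17 regulator genes found, 1 row per gene in order of its first day at a value of 50 and 1 column per library (days not to scale), coloured by log2(value + 1). HNF4A and TBX3 are brightest at day 7, at 1044 and 768, and ZHX2 is darker from day 9 on, while no gene of the list passes the limits for a call from day 13 to day 21.

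The genes most like each carrier were named by Pearson's r of log2(value + 1) over the 10 libraries, as a description. For AFP these were CIDEB (0.996), SLC39A5 (0.996), SOAT2 (0.995), PLA2G12B (0.994) and FGA (0.993). Among them SLC39A5 encodes a zinc transporter, SOAT2 an enzyme that esterifies cholesterol and FGA a fibrinogen chain. FGA was 1, 49, 1554 and 3428 at days 3, 5, 7 and 9. For TTR they were GPC3 (0.998), SLCO2B1 (0.994), SLC39A5 (0.994), SERPINC1 (0.993) and RP3-324N14.2 (0.991). GPC3, a heparan sulfate proteoglycan of fetal liver, was 56, 308, 3428 and 6493 at days 3, 5, 7 and 9. SERPINC1, which encodes antithrombin, was 2 at day 5 and 85 at day 21.

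For ALB the values of r were lower, with PI4KB (0.969), TRIM3 (0.966), RAB14 (0.966), CYB5R1 (0.965) and SIL1 (0.965), and TRIM3 was 35 at day 0 and 304 at day 21. For AHSG they included PCSK5 (0.989), ADAMTS2 (0.987), CRYL1 (0.982) and CUL7 (0.977), and for AMBP they were CD4 (0.961), MED12 (0.953), PEAK1 (0.939), TRIP11 (0.935) and ZNF384 (0.934). The genes named for ALB rest on the day 21 library, since 0 of the 5 were among the 5 most alike without it. Between the carriers themselves r was 0.988 for AFP and TTR, 0.870 for ALB and AHSG, 0.696 for AFP and ALB and 0.576 for ALB and AMBP. All these values come from the same 10 libraries, which are ordered in time, and AFP and TTR share 4 points at the maximum.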

How the data were processed

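Bulk RNA-seq of 10 libraries was analysed from 1 table of 12125 genes. The authors aligned the reads to an Ensembl transcriptome with Bowtie2 (2.2.0) and RSEM (1.2.17), as their methods and the processing notes of the submitters name them, and applied EDASeq for a GC normalization. Those notes list both a human and a mouse build with no role for either. The whole numbers that the authors deposited are scores, not read counts, so they do not give a library's depth, no count test was used and no counting interval is given.

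Columns were matched to days by name. Differences were taken on log2(value + 1), with no scaling of libraries and the limits given in the report, and with 1 library per day no test between days was made. Genes with a value under 50 in both libraries were not counted in the shares of all genes. GC content of genes came from GENCODE transcripts and promoters from RefSeq (GRCh38.p14), searched on both strands.

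The genes named are the carriers, the 5 most alike by Pearson's r among genes that reached 50, up to 6 of each list by size of difference from day 0 to day 21, and HNF4A, FOXA2, CEBPA, ZHX2, ZBTB20 and ZFHX3. Other genes of the lists and those sharing a value with a carrier were chosen after their values were seen. The carriers and lists were chosen with earlier results of these data known. A few genes of the lists and of the most alike genes, and 1 promoter motif, are not reported here, and the lists are counted without those genes.

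Alternatives were other pseudocounts, limits, a median-of-ratios scaling, Spearman's rho, leaving out day 21 and, chosen after seeing the data, day 11 in place of day 13. Python 3.11.15, numpy 2.4.6, pandas 2.3.3 and matplotlib 3.10.9 were used, and the code was tested on simulated data.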

Additional observations from a re-analysis of the deposited data

How the results depend on the processing

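With 1 library per day, no result has a replicate error, and the top levels limit AFP, TTR, ALB and AHSG to places in a ranking. Values below the top levels may be places on a shared scale too. The number of carriers called higher in the 4 steps was the same with pseudocounts of 0.1 or 5, a larger value of at least 200, scaling by the median of ratios (factors 0.915 to 1.06) and, from day 7 and to day 21, day 11 in place of day 13. With a log2 limit of 1 it was 0, 3, 3 and 2. With no minimum on the larger value it was 1 of 5 from day 0 to day 3 (ALB) and 4 of 5 from day 3 to day 7, by construction of the limit. Of 60 recomputed differences, 10 moved by more than the spread between days 9 and 11, all through the pseudocount, and 0 changed direction. A pseudocount cannot change a direction, so only the 20 differences recomputed with scaling could have done so.

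The first day at a set value depended on that value. At 20 it was day 0 for AFP, day 1 for ALB and day 5 for TTR, AHSG and AMBP. At 200 it was day 21 for ALB and day 13 for AHSG, and AMBP never reached 200. By entry into the highest 10% of the library it was day 7 for AFP and TTR, day 21 for ALB and day 13 for AHSG, and AMBP never entered.

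Of the 5 most alike genes, Spearman's rho kept 0 for AFP, ALB, AHSG and AMBP and 1 for TTR. Without the day 21 library, 2 remained for AFP, 0 for ALB, 3 for TTR, 2 for AHSG and 3 for AMBP. The cause was not tested.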

Other observations

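The 9 values below the maximum that 1 gene held in every library were taken by 41 genes over the course, of which 39 were never at a top-level value outside these 9, the maximum aside. The median GC content of these 41 genes was 41.0% (quartiles 38.8% and 46.0%), beside 49.5% for 240 other genes that were ever in the top levels and 49.7% for the 11961 genes of the table with a GC value. ALB, which took the value 4866 at day 21, and FGB, LUM and COL3A1 belonged to these genes. COL3A1 was 6502 at days 9, 11, 13 and 21. Whether AFP, at the maximum from day 7, was ranked among the same genes as ALB was not tested, and 10 genes share the maximum in each library. At day 7, 2 of the genes at the maximum, EEF1A1 and AFP, were never at a top-level value outside these 9. EEF1A1 shared the maximum with NAP1L1, which is among the 41 genes, at days 0, 1 and 5. At days 9, 11, 13 and 21, the genes at the maximum that were never at a top-level value outside these 9 were H19, EEF1A1 and AFP. Which of them, if any, was ranked among the same genes as ALB was not tested. The GC content was 41.2% for AFP and 41.0% for ALB.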
